A study of Arabidopsis thaliana with 12 samples.

Results

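The clade A protein phosphatases of type 2C (PP2Cs) of Arabidopsis thaliana are the core brake on abscisic acid signalling. They were taken as the 9 loci ABI1 (AT4G26080), ABI2 (AT5G57050), HAB1 (AT1G72770), HAB2 (AT1G17550), AHG1 (AT5G51760), PP2CA, also called AHG3 (AT3G11410), HAI1 (AT5G59220), HAI2 (AT1G07430) and HAI3 (AT2G29380). On the array 11 probes carry these locus codes, 3 of them for PP2CA and 1 for each other locus. All 9 loci are therefore on the array, among 25325 loci with a usable probe, and 7 of them were among the 20794 genes tested.

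Without abscisic acid, these phosphatases remove activating phosphates from SnRK2 protein kinases and hold the kinases inactive. When the hormone is present, its PYR/PYL/RCAR receptors bind the phosphatases and block them, and the freed kinases phosphorylate targets such as the ABF transcription factors and ion channels of guard cells. Most of the phosphatase genes are themselves known to be switched on by abscisic acid, a negative feedback on the pathway, and the hormone takes part in responses to drought, salt and cold.

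RNA came from leaves of 2-week-old seedlings of the Col ecotype, pooled from many seedlings of a plate. One genotype was untransformed Col wild type, and the other carried 35S::RDM4, in which the viral 35S promoter, active in most plant cells, drives RDM4, a nuclear partner of RNA polymerases II and V. Each genotype was sampled at room temperature (0 h) and after 3 h and 48 h at 4 °C, with 2 one-colour arrays for each of the 6 combinations. The labels call the 2 arrays biological replicates. The sources used here do not say whether more than 1 transgenic line was used, nor at what hour plants were sampled. Since no arrays of unchilled plants at 3 h and 48 h were analysed here, cold and elapsed time or hour of day cannot be told apart.

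Levels are log2 processed Cy3 signal minus the 75th percentile of that array, so a level of 0 means a signal at that percentile. Because probes differ in brightness, levels are compared only within a probe. Differences, standard errors and adjusted p-values are from limma, and "passed" means an adjusted p below 0.05 over all 20794 genes. With 2 arrays per group, p-values measure only the spread between these samples. In whole leaves, a change in the RNA of each cell and a change in the share of cells that make it cannot be told apart.

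The 2 arrays of a group had a Pearson r of 0.996 to 0.997 over genes. Between 73.4 and 76.9% of probes on an array were well above background. RDM4 (AT2G30280) lay at log2 levels of 0.09 to 0.57 in the 6 wild type arrays and at 5.44 to 6.10 in the 6 35S::RDM4 arrays, so every array matched its genotype label. The 6 leaf mesophyll markers were all well above background on the 12 arrays, with a log2 summed level of 8.65 to 9.44. All 5 root markers were also well above background on every array, although the labels name leaf as the tissue. The 12 arrays lie on 5 slides, and only 1 slide holds both genotypes at the same time point, 48 h. Where no slide holds both sides of a comparison, its value with the slide as a block is linked through arrays of other groups.

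AHG1 and HAI3 could not be followed in these leaves. AHG1, which acts mainly in seeds and germination, had signals of 7.4 to 38.9, and HAI3, a member of the highly abscisic acid-induced group, had signals of 9.3 to 37.4. Neither was well above background on any of the 12 arrays, where the lowest signal of a probe called well above background was 13.3 to 48.6. No fold is given for either gene. The other 7 genes were well above background on all 12 arrays, so none of them entered the test through 1 group alone.

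ABI1 and ABI2 are close relatives first known from dominant mutants that no longer respond to abscisic acid. In wild type, the 2 arrays of ABI1 had log2 levels of 1.85 and 1.77 at 0 h, 2.98 and 2.88 at 3 h, and 2.79 and 2.79 at 48 h. In 35S::RDM4 they were 1.67 and 1.67 at 0 h, 2.92 and 2.93 at 3 h, and 2.95 and 2.78 at 48 h. Every chilled array lay above every 0 h array, and each chilled group overlapped its neighbour in the order. ABI1 rose 2.18-fold by 3 h in wild type (log2 1.12 ± 0.06, standard error, n = 2, limma adjusted p = 6.76e-07) and was 1.98-fold above 0 h at 48 h (log2 0.98, adjusted p = 7.88e-07). In 35S::RDM4 the corresponding rises were 2.38-fold and 2.28-fold. Between 3 h and 48 h its log2 difference was −0.14 in wild type (adjusted p = 0.0579) and −0.06 in 35S::RDM4 (adjusted p = 0.352). The wild type call sits at the threshold and passed in 10 of 24 alternative settings. The wild type arrays of a replicate number share 1 slide, a different one for each number. For this call the limma adjusted p was 0.0349 with the replicate number as a block and 0.0270 with the slide as a block. It was 0.0462 with the slide as a random block. Within the wild type slides the differences were −0.19 and −0.09.

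ABI2 followed a different course from its close relative. Its wild type levels were −1.51 and −1.65 at 0 h, 0.27 and 0.19 at 3 h, and −0.84 and −0.87 at 48 h. Its 35S::RDM4 levels were −1.40 and −1.47 at 0 h, 0.49 and 0.52 at 3 h, and −0.51 and −0.51 at 48 h. No 2 of its 6 groups overlapped: 0 h was lowest, 48 h lay between and 3 h was highest, and at each time 35S::RDM4 was above wild type. ABI2 rose 3.50-fold by 3 h in wild type (log2 1.81 ± 0.05, adjusted p = 2.04e-08) and 3.84-fold in 35S::RDM4. It then fell by 1.09 on the log2 scale between 3 h and 48 h in wild type (adjusted p = 2.50e-07) and by 1.01 in 35S::RDM4 (adjusted p = 3.72e-07). At 48 h it was still 1.65-fold and 1.90-fold above 0 h in wild type and 35S::RDM4.

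HAB1, whose loss makes plants oversensitive to abscisic acid, moved like ABI2 over time, with smaller steps. Its wild type log2 levels were −0.97 and −1.01 at 0 h, 0.02 and 0.04 at 3 h, and −0.47 and −0.45 at 48 h. The 35S::RDM4 levels were −0.97 and −1.03, then 0.24 and 0.24, then −0.33 and −0.21. The 0 h groups overlapped, and no other neighbours in the order did. HAB1 rose 2.03-fold by 3 h in wild type (log2 1.02 ± 0.04, adjusted p = 2.21e-07) and 2.36-fold in 35S::RDM4. From 3 h to 48 h it fell by 0.49 in wild type and by 0.50 in 35S::RDM4 on the log2 scale, and it remained 1.45-fold and 1.66-fold above 0 h.

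HAB2, the closest relative of HAB1, moved least among the 7 genes at 3 h. Its log2 levels were −0.36 and −0.35 at 0 h, −0.13 and −0.02 at 3 h, and −0.10 and −0.11 at 48 h in wild type, and in 35S::RDM4 they were −0.32 and −0.39, −0.03 and −0.01, and −0.08 and −0.15. The 4 chilled groups overlapped one another in turn, and all of them lay above both 0 h groups. It rose 1.22-fold by 3 h in wild type (log2 0.28 ± 0.05, adjusted p = 0.000670) and 1.26-fold in 35S::RDM4, and at 48 h it was 1.19-fold and 1.18-fold above 0 h. With the slide as a block, the 48 h rise in 35S::RDM4 no longer passed (log2 0.16, adjusted p = 0.174).

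PP2CA, a phosphatase active in seeds and in guard cells, was measured by 3 probes. The brightest of them, which represents the gene in the test, gave wild type log2 levels of 2.04 and 2.05 at 0 h, 3.22 and 3.17 at 3 h, and 2.71 and 2.76 at 48 h. In 35S::RDM4 it gave 2.19 and 2.33, 3.27 and 3.22, and 3.05 and 3.10. On this probe the genotypes did not overlap at 0 h or 48 h and did overlap at 3 h. On the other probes they were also separate at 3 h: on 1 the higher wild type array was at 2.63 and the 35S::RDM4 arrays at 2.75 and 2.83, and the other gave 1.03 and 0.98 against 1.19 and 1.20. PP2CA rose 2.22-fold by 3 h in wild type (log2 1.15 ± 0.05, adjusted p = 2.38e-07) and 1.98-fold in 35S::RDM4, and at 48 h it was 1.62-fold and 1.75-fold above 0 h. Over the 3 probes the log2 rise by 3 h was 1.15 to 1.19 in wild type and 0.98 to 1.20 in 35S::RDM4, so the probes were closer to one another in wild type. Between 3 h and 48 h it fell by 0.46 on the log2 scale in wild type. The fall in 35S::RDM4 was 0.17 on the brightest probe (adjusted p = 0.0135), and 0.26 and 0.35 on the others (adjusted p = 0.000480 and 0.000462 in the fit over probes). On the brightest probe it was lost in 5 of the alternative settings, among them those without 35S::RDM4 3 h replicate 1 (adjusted p = 0.0783) and without 35S::RDM4 48 h replicate 1 (adjusted p = 0.0675).

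HAI1 and HAI2 belong to the group named for strong induction by abscisic acid. HAI1 had wild type log2 levels of −2.18 and −2.29 at 0 h, −1.81 and −1.81 at 3 h, and −2.73 and −2.82 at 48 h. In 35S::RDM4 it had −2.18 and −2.29 at 0 h, −1.59 and −1.65 at 3 h, and −2.05 and −2.03 at 48 h. The 0 h arrays of the genotypes overlapped. At 48 h both wild type arrays lay below every other array, while both 35S::RDM4 arrays lay above every 0 h array. HAI1 rose 1.34-fold by 3 h in wild type (log2 0.43 ± 0.05, adjusted p = 0.000150) and 1.53-fold in 35S::RDM4 (adjusted p = 1.51e-05). In wild type it then fell, to 1.46-fold below 0 h at 48 h (log2 −0.54 ± 0.05, adjusted p = 2.10e-05). In 35S::RDM4 it was 1.14-fold above 0 h at 48 h (log2 0.19 ± 0.05, adjusted p = 0.0106). That last call was lost under normexp background correction (log2 0.15, adjusted p = 0.214), with the slide as a block (log2 0.21, adjusted p = 0.0880) and without 35S::RDM4 0 h replicate 2 (log2 0.14, adjusted p = 0.0784).

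HAI2 had the dimmest probe of the 7 genes, with signals from 57.9 to 781.1, and the size of its rise depended on the background correction. Wild type log2 levels were −5.56 and −5.45 at 0 h, −2.85 and −3.18 at 3 h, and −3.34 and −3.75 at 48 h. In 35S::RDM4 the levels were −5.16 and −5.65, −3.16 and −3.06, and −2.91 and −2.84. The 0 h groups overlapped at the bottom, the wild type 48 h arrays came next, and the other chilled groups overlapped at the top. It rose 5.61-fold by 3 h in wild type (log2 2.49 ± 0.18, adjusted p = 5.67e-06) and 4.90-fold in 35S::RDM4, and at 48 h it was 3.87-fold and 5.77-fold above 0 h. These 3 h rises were the largest of the 7 genes in the main setting. Under normexp background correction the wild type log2 rises were 1.43 at 3 h and 0.97 at 48 h, and they still passed. Under normexp the 3 h rise of HAI2 was below that of ABI2 in both genotypes, at 1.43 against 1.72 in wild type and at 1.68 in 35S::RDM4, where ABI2 was at 1.89 or more in all 24 alternatives. In wild type it fell by 0.54 on the log2 scale from 3 h to 48 h (adjusted p = 0.0273), a call lost under normexp, when only the arrays compared were fitted, without wild type 3 h replicate 1 (adjusted p = 0.162) and without wild type 48 h replicate 2 (adjusted p = 0.178). In 35S::RDM4 the same step was log2 0.24, with a 95% interval of −0.19 to 0.66 (limma adjusted p = 0.274). It passed as higher in 1 of the 24 alternatives, when only the arrays compared were fitted (limma adjusted p = 0.0216).

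**Figure D1:**
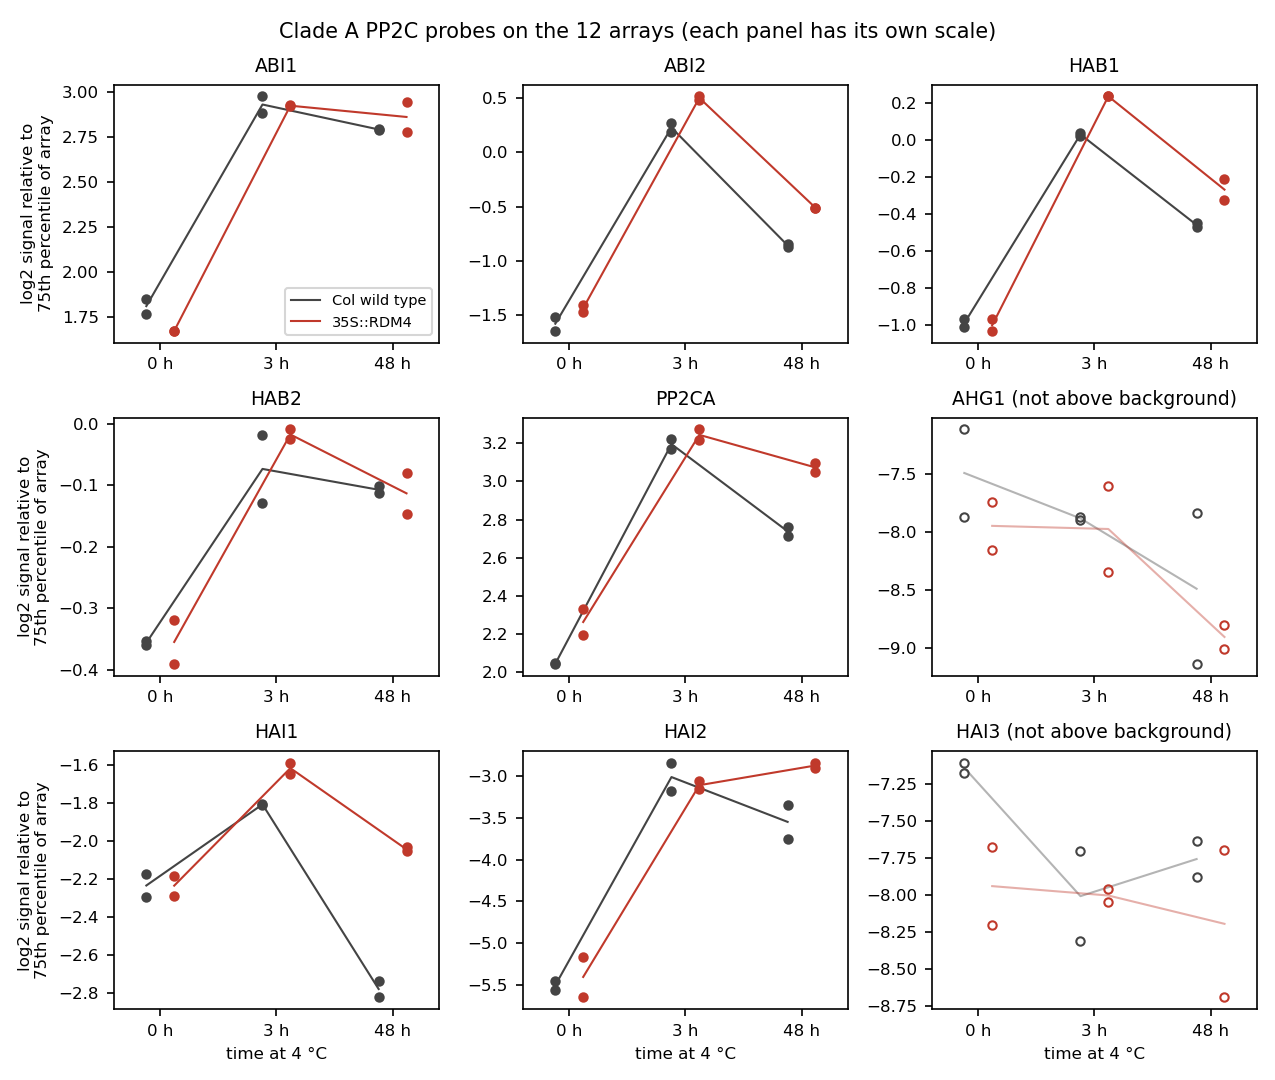
Levels of the 9 phosphatase genes on each array, with AHG1 and HAI3 (open points) not above background, as log2 processed signal relative to the 75th percentile of the array (vertical axis, own scale per gene), at 0 h, 3 h and 48 h at 4 °C (horizontal axis, evenly spaced categories). Points are arrays, 2 per group, and lines join group means. The other 7 genes lie higher at 3 h than at 0 h in both genotypes, and at 48 h HAI1 lies at −2.73 and −2.82 in wild type but at −2.05 and −2.03 in 35S::RDM4.

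The first question of the design was what 3 h of cold did. All 7 measured phosphatases rose in wild type, where 68.1% of all genes passed, 31.0% as higher and 37.1% as lower. Their median log2 change was 1.12, against −0.04 over all genes tested. All 7 also rose in 35S::RDM4, where 70.0% of all genes passed, 32.9% as higher and 37.0% as lower, with a median of 1.24 against −0.03. So many genes passed that the count says less than the sizes: the median absolute log2 change over all genes was 0.29 in wild type, and HAB2, at 0.28, was the one member below it. The 3 h and 48 h comparisons share their 0 h arrays.

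By 48 h HAI1 had parted from the other phosphatases in wild type. In wild type 6 of the 7 were higher than at 0 h and HAI1 was lower, where 78.7% of all genes passed, 39.8% as higher and 39.0% as lower. The members' median log2 change was 0.69 against −0.00 over all genes. In 35S::RDM4 all 7 were higher than at 0 h, HAI1 included, where 79.6% of all genes passed, 40.9% as higher and 38.7% as lower, with a median of 0.81 against 0.01. The changes of the 7 genes at 48 h in wild type ran from −0.54 for HAI1 to 1.95 for HAI2.

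Between 3 h and 48 h, 5 of the 7 fell in wild type, where 76.0% of all genes passed and 35.1% passed as lower. These were ABI2, HAB1, PP2CA, HAI1 and HAI2, while ABI1 and HAB2 were at −0.14 and −0.03, and ABI1 passed too with the replicate or the slide as a block. In 35S::RDM4, where 75.8% of all genes passed and 35.1% passed as lower, 4 fell: ABI2, HAB1, PP2CA and HAI1. HAI1 fell by 0.97 on the log2 scale in wild type (adjusted p = 6.40e-07) and by 0.43 in 35S::RDM4 (adjusted p = 0.000111). Within the wild type slides, its 48 h minus 3 h differences were −0.92 and −1.01.

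**Figure D2:**
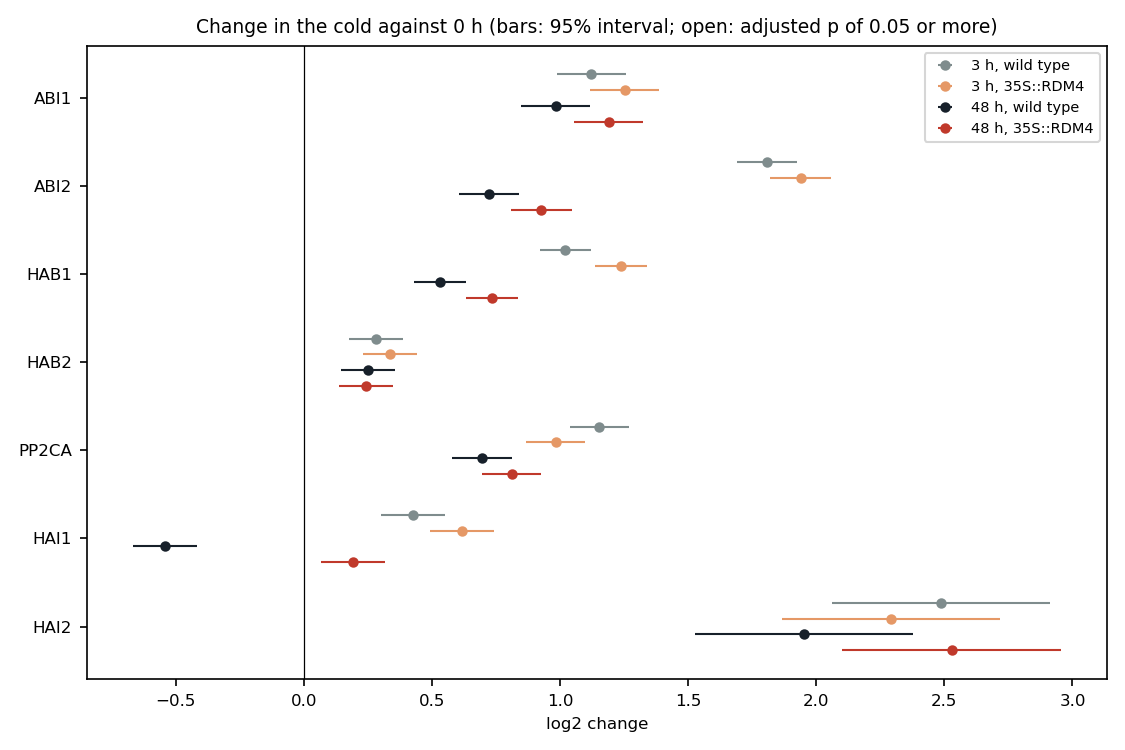
Log2 changes of the 7 phosphatase genes against 0 h at 3 h and at 48 h (horizontal axis), in Col wild type and 35S::RDM4. Points are limma estimates from 2 arrays per group and bars are 95% intervals; all of them passed. At 3 h all points lie to the right of 0. At 48 h HAI1 lies at −0.54 in wild type and at 0.19 in 35S::RDM4.

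The second question was whether 35S::RDM4 changed these genes at a given time. Before cold, 1 of the 7 passed, PP2CA, where 12.8% of all genes passed and 4.75% passed as higher. A share of 1 in 7 is close to the first of these. PP2CA was 1.16-fold higher in 35S::RDM4 (log2 0.22 ± 0.05, adjusted p = 0.0271), and its other probes gave 0.16 each. This call was lost in 7 of the 24 alternative settings, including without wild type 0 h replicate 1 (adjusted p = 0.116), wild type 0 h replicate 2 (adjusted p = 0.0868) or 35S::RDM4 0 h replicate 2 (adjusted p = 0.132). With the slide as a block the difference was 0.047 (limma adjusted p = 0.798). No slide holds both genotypes at 0 h, so that value is linked through arrays of other times. The second 35S::RDM4 0 h array is alone on its slide and adds nothing to it. HAI1 did not pass at 0 h, with a log2 difference of −0.00 and a 95% interval of −0.13 to 0.12.

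After 3 h, 2 of the 7 passed as higher in 35S::RDM4, where 4.94% of all genes passed and 2.26% passed as higher. ABI2 was 1.21-fold higher (log2 0.27 ± 0.05, adjusted p = 0.0345) and HAB1 was 1.15-fold higher (log2 0.21 ± 0.04, adjusted p = 0.0421). Both calls were lost when any one of the 3 h arrays or of the wild type 48 h arrays was left out, with adjusted p-values of 0.0593 to 0.208, and that for HAB1 also when any 0 h array was left out. Within the 2 scan days the log2 differences were 0.22 and 0.33 for ABI2, and 0.21 and 0.20 for HAB1. With the slide as a block ABI2 gave 0.34 (limma adjusted p = 0.0948) and HAB1 0.091 (limma adjusted p = 0.364). No slide holds both genotypes at 3 h, so both values are linked through arrays of other times. HAI1 gave 0.19 (adjusted p = 0.0771), and it passed with the replicate number (adjusted p = 0.0472) or the scan day (adjusted p = 0.0396) as a block. PP2CA gave 0.05 on its brightest probe and 0.18 and 0.19 on the others, none of which passed. The mean of its probes gave 0.14 and passed (adjusted p = 0.0418). ABI1, HAB2 and HAI2 lay between −0.10 and 0.06.

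After 48 h, 3 of the 7 passed as higher in 35S::RDM4, where 3.75% of all genes passed and 2.62% passed as higher. HAI1 was 1.66-fold higher (log2 0.73 ± 0.05, 95% interval 0.61 to 0.86, adjusted p = 0.000252). ABI2 was 1.27-fold higher (log2 0.35 ± 0.05, adjusted p = 0.00929) and PP2CA 1.26-fold higher (log2 0.34 ± 0.05, adjusted p = 0.00973), and each of the 3 PP2CA probes gave 0.29 to 0.37. The median over the 7 was 0.34, against −0.00 over all genes and a median absolute difference of 0.06. HAI2 gave 0.67 ± 0.18 and did not pass after adjustment over all genes (adjusted p = 0.104). HAB1 gave 0.19 (adjusted p = 0.0569), ABI1 0.07 (adjusted p = 0.609) and HAB2 −0.01 (adjusted p = 0.968).

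The HAI1 difference at 48 h passed in all 24 alternative settings, between 0.62 and 0.78, with adjusted p-values up to 0.0315. On the slide that holds both genotypes, where each has 1 array at 48 h, it was 0.77, and within the later scan day it was 0.78. Both values rest on the same wild type array, replicate 2, and share a 35S::RDM4 array, so they are not separate checks. Both 35S::RDM4 48 h arrays were scanned on the later day, while every other group has 1 array per scan day. For ABI2 and PP2CA the same slide gave 0.36 and 0.29. Their 48 h calls were lost in 6 and 5 of the alternatives. Among these were, for ABI2, leaving out wild type 48 h replicate 1 (adjusted p = 0.0501) or replicate 2 (adjusted p = 0.0631) and, for PP2CA, wild type 48 h replicate 1 (adjusted p = 0.0781) or 35S::RDM4 48 h replicate 2 (adjusted p = 0.0578).

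Averaged over the 3 times, 4 of the 7 were higher in 35S::RDM4, where 15.3% of all genes passed and 6.69% passed as higher. The averaged log2 differences were 0.31 for HAI1, 0.25 for ABI2, 0.20 for PP2CA and 0.13 for HAB1. With the slide as a block, HAB1 dropped to 0.043 and PP2CA to 0.11, while HAI1 and ABI2 gave 0.31 and 0.33. None of the 4 passed there, in a fit with 2 residual degrees of freedom that called 20 genes in all. In that fit the 0 h and 3 h parts of the average are linked through arrays of other times.

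**Figure D3:**
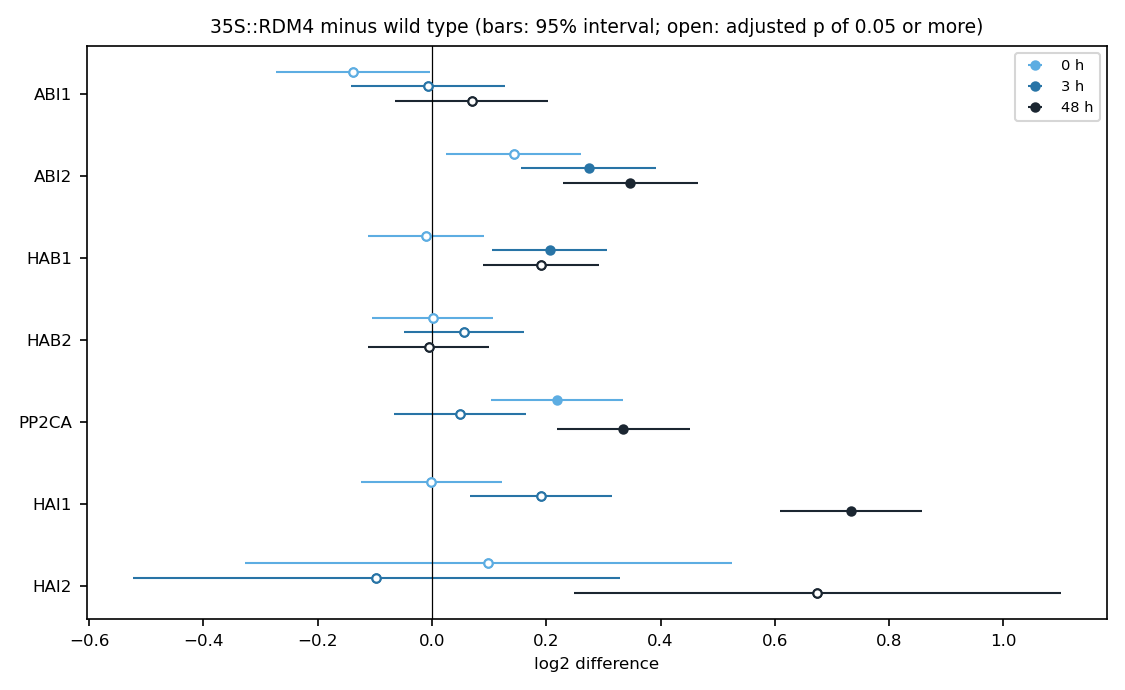
Log2 differences between 35S::RDM4 and wild type for the 7 phosphatase genes at 0 h, 3 h and 48 h at 4 °C. Points are limma estimates from 2 arrays per group, bars are 95% intervals, and open points did not pass. HAI1 lies at −0.00 at 0 h, at 0.19 at 3 h and at 0.73 at 48 h, while ABI1 and HAB2 stay between −0.14 and 0.07.

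The third question was whether the response to cold itself differed between the genotypes. For the first 3 h, 0 of the 7 phosphatases passed this test in limma, where 7.31% of all genes passed. At an unadjusted p below 0.05 there were 3: HAB1 (log2 0.22, adjusted p = 0.0741), PP2CA (−0.17, adjusted p = 0.174) and HAI1 (0.19, adjusted p = 0.159). The PP2CA value rests on its brightest probe: the other probes gave 0.01 and 0.03. HAB1 passed on the deposited value table (adjusted p = 0.0420) and without either 35S::RDM4 48 h array (adjusted p = 0.0391).

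For 48 h, 1 of the 7 passed, HAI1, where 5.44% of all genes passed, 4.55% as higher and 0.890% as lower. The 35S::RDM4 response minus the wild type response was log2 0.73 ± 0.08 (95% interval 0.56 to 0.91, adjusted p = 0.00136), a fall in wild type set against a rise in 35S::RDM4. It passed in 22 of the 24 alternatives. It was lost under normexp (0.67, adjusted p = 0.0577) and with the slide as a block (0.75, adjusted p = 0.0702). The other 6 members gave −0.01 to 0.58. Of these HAI2 was the highest, with a 95% interval of −0.03 to 1.18 (adjusted p = 0.288).

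For the shift from 3 h to 48 h, HAI1 again was the 1 member that passed, where 1.38% of all genes passed and 1.08% passed as higher. The difference of shifts was log2 0.54 ± 0.08 (adjusted p = 0.0148). It passed in 17 of the 24 alternatives, and was lost without wild type 3 h replicate 1 (adjusted p = 0.0578), wild type 3 h replicate 2 (adjusted p = 0.0600), wild type 48 h replicate 2 (adjusted p = 0.0539) or 35S::RDM4 3 h replicate 2 (adjusted p = 0.0650). The HAI1 call was also lost under normexp (log2 0.48, limma adjusted p = 0.381) and on the deposited value table (0.50, adjusted p = 0.101). With the slide as a block it was lost as well (0.58, adjusted p = 0.0741). HAI2 gave 0.77 (adjusted p = 0.230) and PP2CA 0.29 on its brightest probe (adjusted p = 0.118), against 0.20 and 0.10 on the others.

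Some markers of other organs also passed in the test of 48 h responses, in which HAI1 passed. The 5 root markers had a log2 summed level of 3.19 to 3.24 in wild type and 3.41 to 3.51 in 35S::RDM4 at 48 h, and of 4.34 to 4.36 and 4.27 to 4.27 at 0 h. The lower sum at 48 h follows the root marker TIP2;2, whose log2 change against 0 h was −3.92 in wild type and −3.79 in 35S::RDM4. In each genotype 4 of the 5 root markers passed as higher at 48 h than at 0 h and 1 as lower. Of the 5, the phosphate transporter gene PHT1;1 passed in the test of 48 h responses, at log2 0.55. At 48 h it was higher by 0.48 in 35S::RDM4, while the other root markers lay between −0.10 and 0.06 and did not pass. The 5 seed markers, 4 of them well above background on all arrays, summed to log2 levels of −0.05 to −0.01 in wild type and −1.42 to −1.23 in 35S::RDM4 at 0 h, and to −1.48 to −1.45 and −1.60 to −1.54 at 48 h. The seed storage protein genes CRU3 and CRA1 and the late embryogenesis gene EM6 passed in the test of 48 h responses, at 2.81, 1.16 and 0.52. Their log2 differences, 35S::RDM4 minus wild type, were −2.14, −1.21 and −1.01 at 0 h, and 0.68, −0.05 and −0.49 at 48 h. At 48 h that of CRA1 did not pass. In the test of 48 h responses the other root markers gave 0.03 to 0.27, and the seed markers OLEO1 and EM1 0.47 and 0.66. None of these passed. The 5 guard cell markers had 0 of 5 passing in that limma test and 2 at an unadjusted p below 0.05, with summed levels of 1.59 to 1.60 in wild type and 1.62 to 1.65 in 35S::RDM4 at 48 h. The part of these markers in the HAI1 result was not tested.

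Genes that work with or downstream of the phosphatases were then compared in the same fit. The lists hold 14 abscisic acid receptors, 10 SnRK2 kinases, 10 transcription factors, 8 regulators of the phosphatases, 10 abscisic acid-responsive genes and the 4 clade B PP2Cs, which act on mitogen-activated protein kinases. Each count is over the members tested, and the shares of all genes that passed are those of the same comparisons of the phosphatases.

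Among the receptors, which inhibit the phosphatases when they hold the hormone, 10 of 14 were tested and PYL10 to PYL13 were too dim. After 3 h in wild type 4 were higher and 4 lower, with a median log2 change of −0.03. PYL6 rose by 1.05 and PYL2 by 0.71 on the log2 scale, and PYL5 and PYL8 fell by 0.81 and 0.63. After 48 h in wild type 2 were higher and 7 lower, with a median of −0.68 against 0.69 for the phosphatases. PYL5 fell by 1.56, PYR1 by 1.33 and PYL8 by 0.95, while PYL6 was higher by 0.85. In 35S::RDM4 at 48 h, 2 were higher and 6 lower, with a median of −0.56. Receptors and phosphatases thus had medians of opposite sign at 48 h in both genotypes.

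The SnRK2 kinases, which include the main substrates of the phosphatases, moved both ways. After 48 h in wild type 4 of 10 were higher and 3 lower, with a median of 0.06. SnRK2.7 rose by 1.68 and SnRK2.8 by 1.05 on the log2 scale, and SnRK2.3 and SnRK2.5 fell by 1.98 and 0.79. After 3 h 3 were higher and 5 lower, with SnRK2.8 at 1.11, SnRK2.7 at 0.89, SnRK2.2 at −0.89 and SnRK2.3 at −0.86. SnRK2.2 and SnRK2.3 are 2 of the 3 kinases that abscisic acid activates most strongly, and the third, SnRK2.6 of guard cells, was higher by 0.81 at 3 h and 0.74 at 48 h. SnRK2.6 falls outside the 4 largest changes and was named after its values were seen.

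Of the transcription factors, 8 of 10 were tested. After 3 h in wild type 4 were higher and 2 lower: ABF1 rose by 2.35, ABF3 by 0.96 and ABF2 by 0.74 on the log2 scale, and EEL fell by 0.44. All of these are bZIP factors. After 48 h 3 were higher and 2 lower, with ABI5, a bZIP factor of germination, at 2.22, ABF1 at 1.40, ABF2 at 0.63 and EEL at −0.86.

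All 10 abscisic acid-responsive genes passed at both times in both genotypes. After 3 h in wild type 9 were higher, with a median of 0.80, led by RD20, a lipid droplet protein gene, at 2.64 and the dehydrin gene LTI30 at 2.45, and AT3G02480 was lower by 0.12. After 48 h 7 were higher and 3 lower, with LTI30 at 4.43, the cold-induced KIN2 at 3.07, the seed protein gene EM1 at −1.98 and LEA14 at 1.70. At 48 h the median change against 0 h was 1.03 in 35S::RDM4, against 0.48 in wild type. Set directly against wild type, 35S::RDM4 had a median log2 difference of −0.02 at 48 h, with 3 of these genes higher and 2 lower. Before cold that median was −0.21, with 0 higher and 4 lower.

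The clade B phosphatases gave a comparison with another branch of the PP2C family. After 3 h in wild type 3 of 4 were higher: AP2C2 rose by 1.98, AP2C3 by 1.58 and AP2C1 by 0.55, and AP2C4 (−0.08) did not pass. Their median was 1.07, near the 1.12 of clade A. However, AP2C2 was well above background on only 9 arrays. Its 0 h log2 levels in both genotypes, −7.86 to −7.20, lay below all its chilled levels. Its lowest signal was 13.5, and the lowest signal called well above background was 13.3 to 48.6 over the arrays. Background therefore limits the sizes of its rises at 3 h and 48 h. After 48 h AP2C2, AP2C3 and AP2C4 were higher by 1.32, 0.67 and 0.19, and AP2C1 was lower by 0.24. Clade B thus also held 1 member below its 0 h level at 48 h, but AP2C1 was at −0.25 in 35S::RDM4, on the same side as in wild type.

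**Figure D4:**
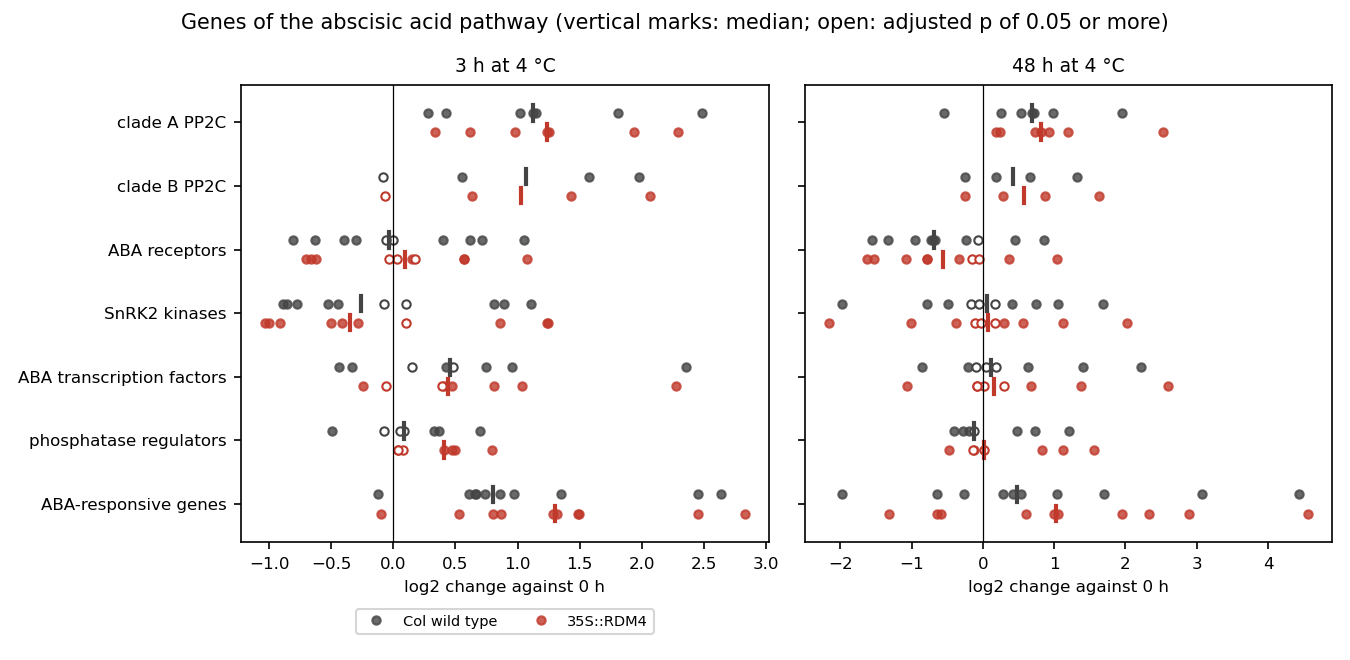
Log2 changes against 0 h at 3 h (left) and 48 h (right) for the tested members of the clade A phosphatases and 6 other lists of the abscisic acid pathway, in Col wild type and 35S::RDM4. Points are genes, open points did not pass, and vertical marks are medians. At 48 h in wild type the clade A median is 0.69 and the receptor median −0.68.

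In the test of 48 h responses between the genotypes, 3 of the 7 tested regulators of the phosphatases passed as higher in 35S::RDM4. ATHB12 gave log2 0.40 ± 0.06 (adjusted p = 0.00889), ATHB7 0.36 ± 0.08 (adjusted p = 0.0445) and the ubiquitin ligase gene RGLG5 0.35 ± 0.08 (adjusted p = 0.0400). ATHB7 and ATHB12 are homeodomain-leucine zipper factors known to act on genes of this phosphatase clade. Among the responsive genes 3 passed as higher and 1 as lower, namely RD29B, a classical abscisic acid reporter gene, at 1.29, the NAC factor gene RD26 at 0.58, EM6 at 0.52 and AT3G02480 at −0.32. Among the receptors PYR1 passed as lower, at −0.29, and 0 of the kinases, transcription factors and clade B phosphatases passed in limma. At an unadjusted p below 0.05 these 3 lists had 2, 2 and 1 members.

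These genes reached their differences in more than one way. At 0 h RGLG5 was lower by 0.34 in 35S::RDM4, and at 48 h its difference was 0.01 (adjusted p = 0.942). EM6 was lower in 35S::RDM4 at both times, by 1.01 and 0.49. RD29B (0.97), RD26 (0.39), ATHB12 (0.33) and ATHB7 (0.27) were higher in 35S::RDM4 at 48 h, as HAI1 was. Before cold RD26 was lower by 0.19 in 35S::RDM4, and RD29B (−0.32), ATHB7 (−0.08) and ATHB12 (−0.06) did not pass.

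**Figure D5:**
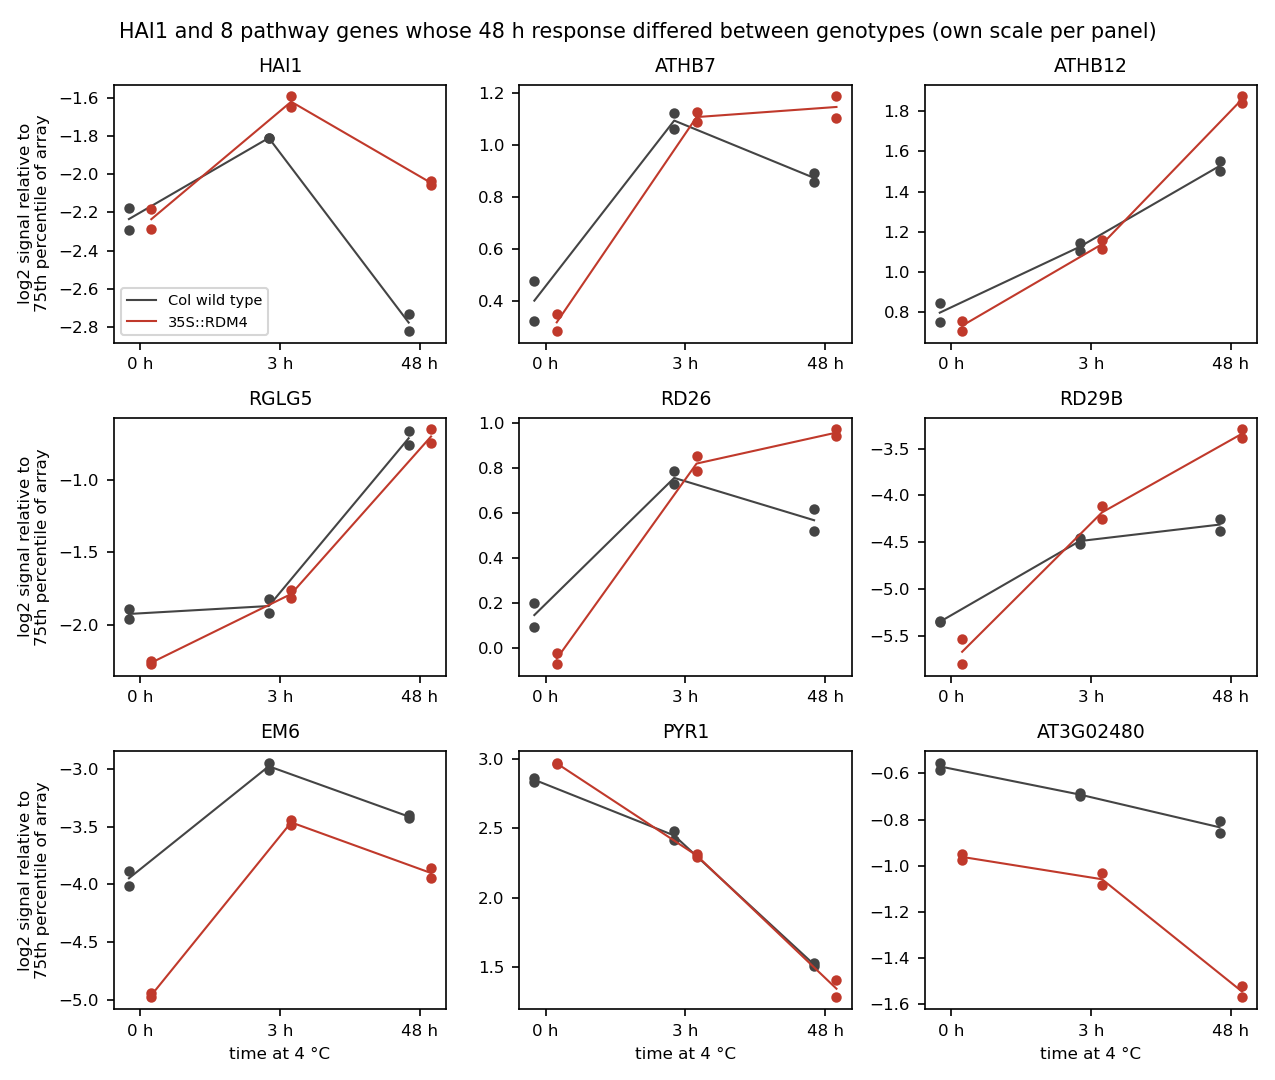
Levels of HAI1 and of the 8 other pathway genes that passed in the test of 48 h responses between genotypes, as log2 signal relative to the 75th percentile of each array, at 0 h, 3 h and 48 h (evenly spaced categories, own vertical scale per panel). Points are arrays, 2 per group, and lines join means. HAI1 at 48 h lies below its 0 h level in wild type and above it in 35S::RDM4, and RGLG5 differs between the genotypes at 0 h rather than at 48 h.

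Across the 12 arrays, 6 of the phosphatases had similar profiles and HAI1 did not share them. Pearson correlations among ABI1, ABI2, HAB1, HAB2, PP2CA and HAI2 were 0.85 to 0.99, and those of HAI1 with the 6 were 0.30 to 0.69. The points share 6 groups of 2 arrays, and large time steps dominate such values, so they are given as a description. The named gene with the profile most like each member, over the same 12 arrays, was LACS8 for ABI1 (r = 0.999), PUB23 for ABI2 (0.994) and ACR8 for HAB1 (0.995). For HAB2 it was TRP1 (AT5G59430, 0.978), for PP2CA MOT1 (0.989), for HAI1 NAC3 (AT3G15500, 0.964) and for HAI2 the receptor gene PYL6 (0.988).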

How the data were processed

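The deposited files are scanner output of 12 one-colour Cy3 arrays, made with Agilent Feature Extraction 10.7.1.1 and protocol GE1_107_Sep09, per the file headers. Its processed signal, as deposited, is spot intensity after the scanner software's background correction, not on a log scale, per the file headers. A deposited value table equals the scanner's median signal intensity in 11 of 12 columns; for the second 35S::RDM4 48 h array 1.45% of values were equal, so it served as an alternative only. The build named with the probe annotation is not that of the gene table used for symbols, so no coordinates are printed.

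Each array holds 45220 features, 1417 of them controls. Control spots and 108 probes with outlier calls were left out; 0 spots were saturated. The deposited intensity was taken to log2 and the 75th percentile of each array, 2725 to 5685, was subtracted. Probes well above background on both arrays of at least 1 of 6 groups were kept (33198, of which 28823 have a locus), and the probe with the highest mean represents a gene, which gave 20794 genes. In limma 3.58.1 (R 4.3.3) all 12 arrays were fitted with 6 group means and empirical Bayes variances (6 residual and 2.08 prior degrees of freedom), with Benjamini-Hochberg adjustment over all genes in each of 13 comparisons. The steps were tested on simulated data. The number of arrays limits precision.

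The members and all gene lists were chosen with earlier results of these data known, so the lists are no independent support. Named genes are the 9 loci, up to 4 members per list with the largest changes among those that passed, and the gene with a symbol most correlated with each measured locus. In the checks of paired numbers, deviations of same-numbered arrays correlated at −0.05 to 0.29 over 15 pairs of groups, 5 of them over 0.1. All 3 pairs within wild type were over 0.1 (0.17 to 0.29), and there the number coincides with the slide; the 3 pairs within 35S::RDM4 were not. The numbers were therefore not used to pair samples across all groups, and block values stand beside the results whose call they change. Alternatives were 12 other settings (background, scaling, filter, value table, probe rule, arrays fitted, blocks) and leaving out each of the 12 arrays in turn. The planned normexp input, mean signal, was replaced by median signal with an offset of 50.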

Additional observations from a re-analysis of the deposited data

Results flagged for a closer look

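HAI1 is listed here because its response to cold differed between the genotypes by a test of the difference itself. The 48 h response was higher by log2 0.73 in 35S::RDM4 than in wild type (limma adjusted p = 0.00136), and the shift from 3 h to 48 h was higher by 0.54 (adjusted p = 0.0148). All 4 arrays at 48 h show the direction, with levels of −2.73 and −2.82 in wild type and −2.05 and −2.03 in 35S::RDM4.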

How the results depend on the processing

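The 3 h rises of all 7 genes in both genotypes, their 48 h changes in wild type, and the 48 h difference of HAI1 between genotypes passed under all 24 alternatives. Over 57 changes that passed in at least 1 setting, alternatives kept direction and call 1272 times, lost the call 72 times, gained one 21 times and turned the sign 3 times. Those turned were ABI1 between 3 h and 48 h in 35S::RDM4, 0.0060 on the value table and −0.15 to 0.021 with 1 array left out (the upper value without the second 48 h array), and PP2CA between genotypes at 3 h, −0.026 with the slide as a block. None of the 3 values passed, and the cause was not tested.

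Counts of members that passed moved in the genotype comparisons. At 0 h the count of 1 became 0 under normexp, the value table, only the arrays compared and the slide block. At 3 h the count of 2 became 0 under these 4 settings and without a background filter. At 48 h 3 became 1 under normexp, only the arrays compared and the slide block, and for the average 4 became 2 under normexp and 0 under the slide block. For differences of responses, the 3 h count of 0 became 1 on the value table, the 48 h count of 1 became 0 under normexp and the slide block, and the count of 1 for the shift became 0 under these and the value table. The slide block and fitting only the arrays compared leave 2 residual degrees of freedom. Genes called fell from 2667, 1028 and 780 at 0 h, 3 h and 48 h to 1231, 16 and 171 under normexp and to 80, 27 and 259 under the slide block. For differences of responses 1521, 1132 and 286 genes were called.

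Leaving out 1 array at a time gave 7 to 7 members in wild type at 3 h and at 48 h, 4 to 6 for its later shift, 7 to 7, 6 to 7 and 3 to 4 in 35S::RDM4, 0 to 1, 0 to 2, 1 to 4 and 4 to 4 between genotypes at 0 h, 3 h, 48 h and on average, and 0 to 1, 1 to 2 and 0 to 1 for differences of responses. With the replicate number as a block, 6 members passed for the wild type shift, ABI1 being added, and 3 between genotypes at 3 h, HAI1 being added; the other counts were as without the block. The signal of HAI2 over background limits its sizes.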
